A study of Mus musculus with 6 samples.

Results

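The miR-34 family was followed in 3 mouse liver tumours and in 3 samples of normal-looking liver beside them. Members were every row of the deposited table for miR-34a, miR-34b or miR-34c, with or without an arm in the name, and these were 5 of the 695 microRNAs measured: mmu-miR-34a, mmu-miR-34b-3p, mmu-miR-34b-5p, mmu-miR-34c and mmu-miR-34c*, written below without the species prefix. Both groups came from C57BL/6J mice, aged 6 months, that had been given 3E10 particles of AAV-Rian-CMV, an adeno-associated virus vector for gene targeting at the non-coding RNA gene Rian, through the superficial temporal vein on the day after birth. Adjacent liver had therefore received the vector as well, and no liver of uninjected mice was analysed here. Samples 1293, 1309 and 1316 in each group form pairs, since the label of an adjacent piece names its tumour. The tumour titled 1316 carries 1306 in its source label. Whether each tumour had an animal of its own is not in the labels, so the p-values may measure less than the spread between animals. Values are log2 intensities of 1-colour arrays after RMA, a method that corrects background, normalizes arrays by quantiles and summarises probes.

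MicroRNAs of the miR-34 family are transcribed under p53, the tumour suppressor that responds to DNA damage and stress. They repress mRNAs that drive the cell cycle, such as those of cyclin-dependent kinases and of Met, and mRNAs that protect from cell death, such as Bcl2. In most adult tissues miR-34a is the widely expressed member, while miR-34b and miR-34c come from 1 shared transcript that is most abundant in ciliated epithelia, testis and brain. In liver, miR-34a is known for a rise with injury, fatty change and ageing.

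The sequences show which members can share targets, since a microRNA recognises mRNAs mainly through its seed, bases 2 to 8 from the 5′ end. In the RefSeq annotation of build GRCm38.p6, the Mir34a hairpin lies on the forward strand at chr4:150068454-150068555, inside the span of no other annotated gene. Hairpins of Mir34b, at chr9:51103562-51103645, and Mir34c, at chr9:51103034-51103110, lie on the reverse strand, close to each other, and both fall within the annotated spans of Btg4 and Hoatz. Whether they are exonic or intronic there was not analysed here. An asterisk in the table's names marks the less abundant arm, so miR-34a and miR-34c stand for the 5p arms and miR-34c* for the 3p arm of Mir34c. RefSeq mature sequences are shown with the seed in capitals, 5′ to 3′, for 4 members and for miR-449a and miR-449c. The 5p arm of miR-34c and miR-449b are named only.
miR-34a-5p: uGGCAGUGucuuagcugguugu
miR-34b-5p: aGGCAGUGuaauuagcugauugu
miR-449a-5p: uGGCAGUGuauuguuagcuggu
miR-449c-5p: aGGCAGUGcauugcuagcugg
miR-34b-3p: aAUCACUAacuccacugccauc
miR-34c-3p: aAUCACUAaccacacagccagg

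The 5p arms of miR-34a and miR-34b thus have the seed GGCAGUG, which 4 of the 1738 mature mouse sequences in the table used here (0.23%) have, a count made without the 5p arm of miR-34c and without miR-449b, while the 3p arms of miR-34b and miR-34c have the seed AUCACUA, found in 2 of the 1738. These 3p arms are the same in their first 10 bases and at 17 of 22 positions. The 5p arms of miR-34a and miR-34b are the same at 11 of the first 22 positions. Both counts run from the first base without gaps, so bases that match only after a shift are not counted. The tails of these 5p arms, shown above, match more closely after such a shift. Hairpins are shown with GGCAGUG in capitals, because the 3 genes hold it once each, toward the 5′ end. Among all 1005 hairpins of the table, 17 (1.69%) hold these letters.
Mir34a hairpin: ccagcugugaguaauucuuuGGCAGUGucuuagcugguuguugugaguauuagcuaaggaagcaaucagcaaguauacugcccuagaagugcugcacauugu
Mir34b hairpin: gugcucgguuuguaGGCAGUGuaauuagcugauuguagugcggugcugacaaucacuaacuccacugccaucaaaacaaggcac
Mir34c hairpin: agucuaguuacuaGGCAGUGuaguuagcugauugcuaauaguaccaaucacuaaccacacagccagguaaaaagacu

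The arrays were alike in their medians, from 6.39 to 6.44, and miR-122, the main microRNA of hepatocytes, was the brightest on all 6. Tumour 1293 stood apart from the other arrays. It held 20 microRNAs at least 1 above their highest value on any other array, whereas the other 5 arrays held 0. The median SD of a microRNA was 0.14 among tumours and 0.05 among adjacent pieces. Differences of members, and medians of lists, that moved by over 1.5 times without tumour 1293 are therefore given both ways.

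In the comparison of tumours with adjacent liver, miR-34a had somewhat higher values in tumours, but no member passed the test over all microRNAs. Of the 5 members 0 were called at an adjusted p of 0.05 by limma with Benjamini-Hochberg adjustment over 695 microRNAs, where 2.88% of all microRNAs were called, and 2.59% were called higher. Those called higher included miR-154* (4.52 on the log2 scale), miR-376b (3.20) and miR-410 (3.15), and those called lower included miR-200a (-0.63). Where the called microRNAs lie in the genome was not analysed here, so microRNAs of a shared locus may be counted together in these shares. At an unadjusted p below 0.05, 1 member, miR-34a, was higher and 0 were lower, against 5.9% and 14.1% of all microRNAs. The mean was higher in tumours for 3 of the 5 members, against 40.4% of all microRNAs, and lower for the other two, against 59.6%. All tumours lay above all adjacent pieces for 1 of the 5 members, again miR-34a, against 8.63% of all microRNAs, and 0 members lay below in this way, against 22.9% of all microRNAs. The members' median log2 fold change was 0.09, and that of all microRNAs was -0.03. Without tumour 1293 both were close to 0, at -0.02 for the members and -0.03 for all microRNAs.

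The values of miR-34a, the widely expressed member, were 8.12, 8.14 and 8.38 in tumours 1293, 1309 and 1316, against 7.91, 8.01 and 7.95 in the adjacent pieces with the same numbers. The groups did not overlap, and the lowest tumour lay 0.11 above the highest adjacent piece. Tumour 1316 was the highest and stood 0.24 above the next array. Tumours averaged 8.21 ± 0.15 and adjacent liver 7.96 ± 0.05 (SD, n = 3 each), which is a difference of 0.26 ± 0.09 (SE) on the log2 scale and a ratio of 1.20. The 95% confidence interval of that difference ran from 0.04 to 0.47, and limma's adjusted p was 0.18.

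Each pair pointed the same way for miR-34a, with tumour minus adjacent differences of 0.21, 0.13 and 0.43 in pairs 1293, 1309 and 1316. Blocking on the pair number gave a limma adjusted p of 0.26, with 1.73% of all microRNAs called. The call depended on the arrays used. Without tumour 1293, limma called miR-34a (0.31 on the log2 scale, adjusted p = 0.041), in a setting where 19.6% of all microRNAs were called. With limma's array weights it was called too (0.32, adjusted p = 0.018), and 19.9% of all microRNAs were. Without pair 1316 the difference was 0.17 (limma adjusted p = 0.60). Over 16 alternatives limma's adjusted p ran from 0.018 to 0.60 for miR-34a, and 2 of them called it. Limma's unadjusted p ran from 0.0014 after quantile normalization to 0.15 with an intensity trend and limma's robust option. In some alternatives the interval before adjustment therefore included 0.

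**Figure D1:**
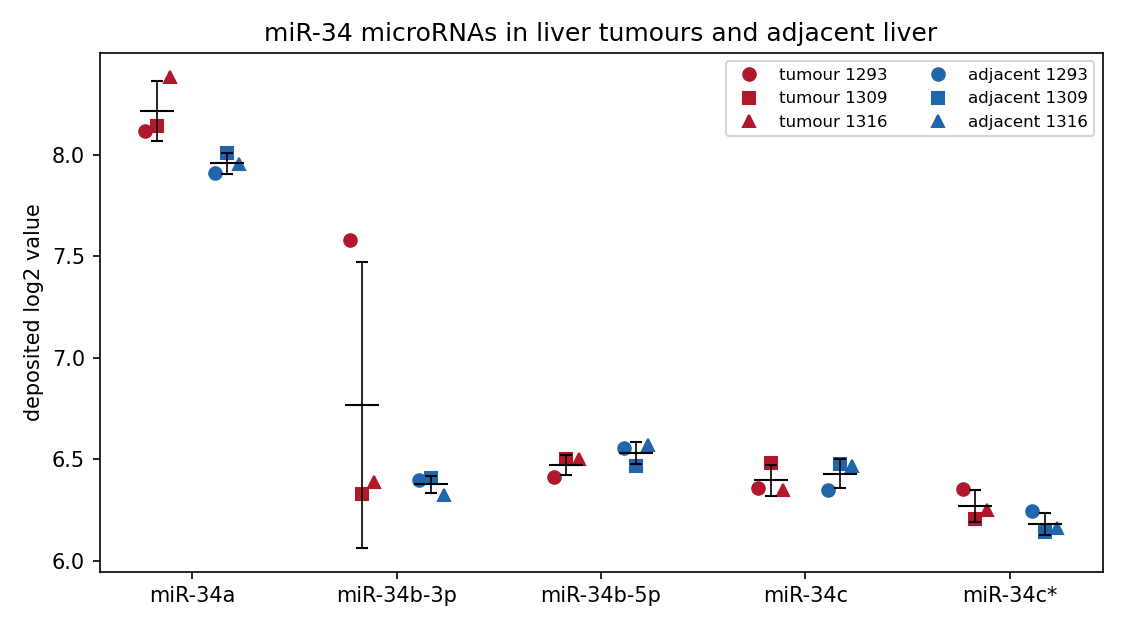
Deposited log2 values of the 5 miR-34 microRNAs (x axis) on each array, tumours in red and adjacent liver in blue, with 1 symbol per pair number; black bars are means and whiskers are SD, n = 3. Values of miR-34a lie between 8.12 and 8.38 in tumours and between 7.91 and 8.01 in adjacent liver, and tumour 1293 stands alone at 7.58 for miR-34b-3p.

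Most microRNAs as bright as miR-34a had lower values in tumours. By mean over the 6 arrays it was the 47th brightest, and the only member among the 174 brightest microRNAs, those with a mean of at least 6.77. Of those 174, 24.1% had a higher mean in tumours and their median log2 fold change was -0.29. All tumours lay above all adjacent pieces for 26 of the 174 (14.9%), miR-34a among them, and below for 98 (56.3%). The mean that picked the 174 includes the tumours, so microRNAs dim in adjacent liver could enter through tumours. Examples are miR-376b (6.33 in adjacent liver, 7.93 over the 6 arrays) and miR-1894-5p (6.44 and 6.92), which was high on tumour 1293. The shares above 0 and the rank of miR-34a depend on that choice. By log2 fold change miR-34a was the 32nd of the 174, with miR-376b at 3.20 and miR-1894-5p at 0.96 among those above it.

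**Figure D2:**
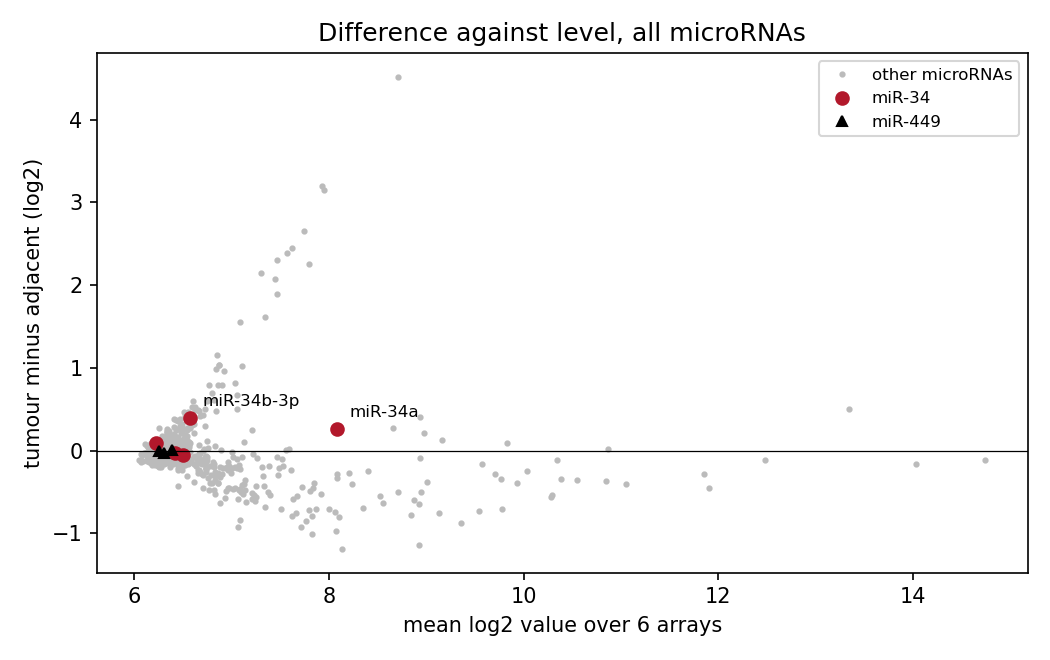
Tumour minus adjacent difference (log2, y axis) against the mean log2 value over the 6 arrays (x axis) for all 695 microRNAs, with the 5 miR-34 members in red and 3 miR-449 microRNAs as black triangles. The point of miR-34a, at a mean of 8.09, lies above 0 at 0.26, where most microRNAs of like brightness lie below 0, and the other members sit at the dim end.

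Among markers of other cell types, the summed linear signal of the 5 stromal microRNAs was 508 to 623 in tumours and 766 to 833 in adjacent liver, with a lower mean in tumours for 4 of 5. For the 5 microRNAs of bile duct and other epithelia the sums were 417 to 493 in tumours and 587 to 637 in adjacent liver, with 5 of 5 lower. The 4 hepatocyte microRNAs were lower in 4 of 4, with sums of 25665 to 34388 in tumours and 34233 to 35109 in adjacent liver. In a linear sum the brightest microRNA weighs most, here miR-122, whose log2 fold change was -0.11 (limma adjusted p = 0.66). Leukocyte markers, lower in 3 of 5, summed to 629.7 to 909 in tumours and 835 to 979 in adjacent liver, and the markers of endothelium, lower in 2 of 2, to 1215 to 1510 in tumours and 1442 to 1546 in adjacent liver. Sums of erythroid markers, lower in 2 of 2, were 696 to 1084 in tumours and 724 to 1365 in adjacent liver. The endothelial and erythroid sums were mostly those of miR-126-3p and miR-451. These counts stand beside 59.6% of all microRNAs with a lower mean in tumours, and 22.9% with all tumours below all adjacent pieces. Among the 174 brightest microRNAs, 24.1% had a higher mean in tumours, and all tumours lay below for 56.3%. Lower values were thus common outside the marker sets too. The part of cell composition in the values of miR-34a was not tested, and in such bulk tissue a change in the share of a cell type cannot be told apart from a change in RNA per cell.

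The arms of miR-34b, which is transcribed together with miR-34c, had different patterns. For miR-34b-3p the values were 7.58, 6.33 and 6.39 in tumours 1293, 1309 and 1316, against 6.40, 6.41 and 6.33 in adjacent pieces. Tumour 1293 alone was high, by 1.17 over the highest of the other arrays, and the other two tumours lay inside the range of adjacent liver. Tumours averaged 6.77 ± 0.70 and adjacent liver 6.38 ± 0.04 (SD, n = 3 each), a log2 fold change of 0.39 ± 0.34 (SE; limma adjusted p = 0.59), with a 95% confidence interval from -0.43 to 1.21. Without tumour 1293 the difference was -0.02 (limma adjusted p = 0.87), and over 16 alternatives the adjusted p ran from 0.377 to 0.97. The larger mean in tumours thus came from 1 array.

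On tumour 1293, miR-34b-3p ranked 13th of the 695 microRNAs by the gap over all other arrays. The 20 microRNAs with a gap of at least 1 there averaged between 6.27 and 7.09 in adjacent liver. An asterisk stood in the names of 6 of the 20 and of 118 of all 695. The 3p arm of Mir34c, whose first 10 bases equal those of miR-34b-3p, read 6.35 on the same array, and miR-34b-5p, from the same hairpin, read 6.41. Neither stood out there in the way of miR-34b-3p. Markers of ciliated epithelium, miR-449a, miR-449b and miR-449c, were below 7 on every array, with sums of 232 to 247 in tumours and 235 to 244 in adjacent liver.

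**Figure D3:**
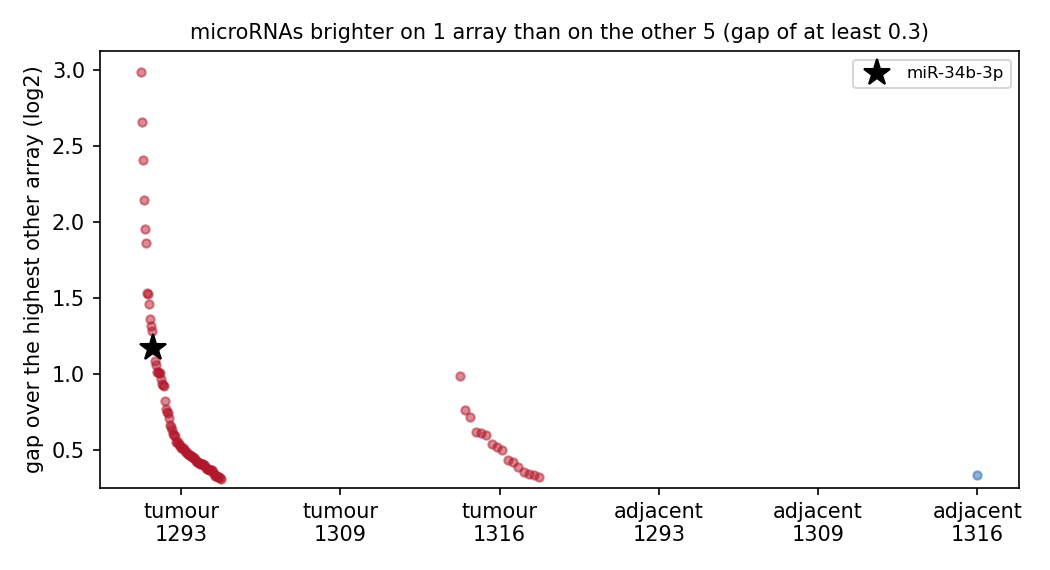
Each point is a microRNA whose log2 value on the array named below was at least 0.3 above its highest value on the other 5 arrays (y axis, the gap on the log2 scale); points are spread sideways in order of size, tumours in red and adjacent liver in blue. Tumour 1293 held 81 such microRNAs, with miR-34b-3p (star) at a gap of 1.17, tumour 1316 held 16, the adjacent piece 1316 held 1 and the other arrays 0.

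The 5p arm, miR-34b-5p, read 6.41, 6.50 and 6.50 in tumours 1293, 1309 and 1316, against 6.56, 6.47 and 6.57 in adjacent pieces. The groups overlapped, and tumour 1293, high for the 3p arm, was the lowest array for the 5p arm. The log2 fold change was -0.06 ± 0.06 (SE; limma adjusted p = 0.63), with a 95% confidence interval from -0.20 to 0.09. Without tumour 1293 it was -0.03.

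Both arms of miR-34c, the paralog in the same transcript, were near the lower end of the scale on every array. Values of miR-34c were 6.36, 6.48 and 6.35 in tumours 1293, 1309 and 1316, against 6.35, 6.48 and 6.47 in adjacent pieces. Tissue 1309 gave the highest value in each group, and the groups overlapped. Its log2 fold change was -0.03 ± 0.07 (SE; limma adjusted p = 0.82), with an interval from -0.20 to 0.13, and without tumour 1293 it was -0.02. For miR-34c* the values were 6.35, 6.20 and 6.25 in tumours and 6.25, 6.14 and 6.16 in adjacent pieces. The tumour was the higher in 3 of 3 pairs, by 0.11, 0.06 and 0.09, although tumour 1309 lay below the adjacent piece 1293. That gave a log2 fold change of 0.09 ± 0.07 (SE; limma adjusted p = 0.57), with an interval from -0.07 to 0.25. Without tumour 1293 it was 0.05.

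Apart from miR-34b-3p in tumour 1293, all values of miR-34b and miR-34c lay between 6.14 and 6.57, around the median of all microRNAs (6.42 for the mean over arrays). No detection calls were analysed here, so these members cannot be called present or absent, and a difference in them may be understated where the signal is background. Over a filter for a mean above that median, 3 of the 5 members remained (miR-34a, miR-34b-3p and miR-34b-5p). Of these, miR-34b-3p passed only through tumour 1293, since its values on all other arrays lay below 6.42 and its adjacent mean was 6.38.

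**Figure D4:**
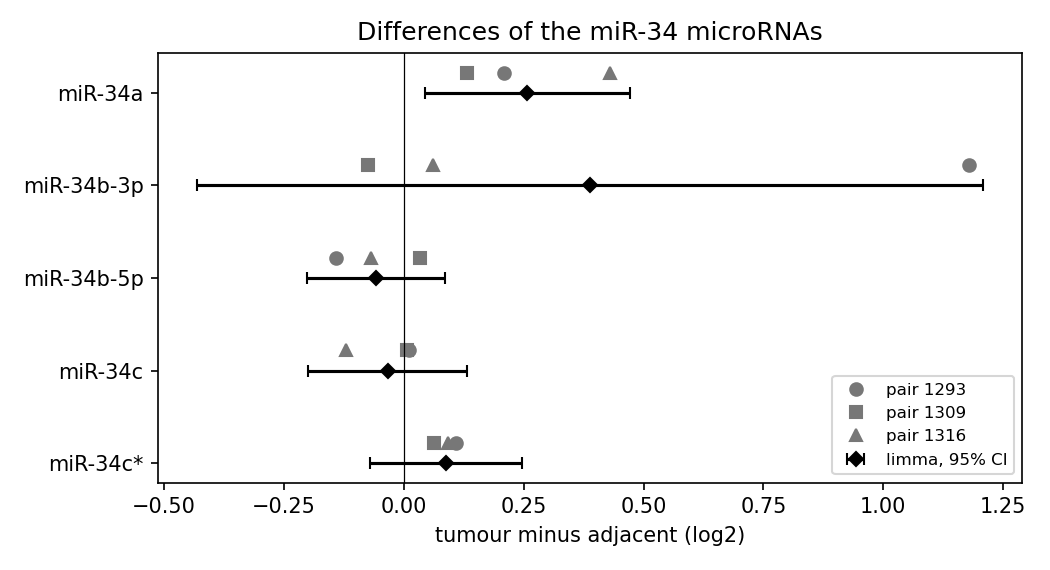
Tumour minus adjacent difference (log2, x axis) for the 5 miR-34 microRNAs, as limma's estimate with its 95% confidence interval (black diamonds) and as the difference within each pair (grey symbols). The interval of miR-34a, from 0.04 to 0.47, lies above 0 before adjustment for 695 tests, and that of miR-34b-3p runs from -0.43 to 1.21.

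Paralogs and arms were compared by their tumour minus adjacent differences, because levels of different probes cannot be set against each other. All 10 combinations of members were tested by an exact two-sided permutation over the 6 arrays, where 3 against 3 cannot go below p = 0.10, so none could pass. The response of miR-34a exceeded that of miR-34c by 0.29 (exact permutation p = 0.10, adjusted p = 0.33), with within-pair differences of 0.20, 0.13 and 0.55 in pairs 1293, 1309 and 1316. It exceeded that of miR-34b-5p by 0.32 (exact permutation p = 0.10, adjusted p = 0.33), positive in 3 of 3 pairs. Against miR-34c* the gap was 0.17, also positive in 3 of 3 pairs (exact permutation p = 0.30, adjusted p = 0.60), and without tumour 1293 it was 0.26.

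The arms of 1 hairpin could be compared for 2 of the genes. For Mir34b, the 3p arm's response minus that of the 5p arm was 0.45, made of 1.32, -0.11 and 0.13 in pairs 1293, 1309 and 1316 (exact permutation p = 0.50, adjusted p = 0.83). Only pair 1293 was large, and without tumour 1293 the difference was 0.01. For Mir34c, the response of the plain arm minus that of the asterisk arm was -0.12, negative in 3 of 3 pairs (exact permutation p = 0.20, adjusted p = 0.50), and without tumour 1293 it was -0.06. The remaining 5 differences had exact permutation p-values from 0.10, for miR-34b-5p minus miR-34c* (-0.15), to 1. Without tumour 1293 that -0.15 was -0.08, and among the others miR-34a minus miR-34b-3p, at -0.13 with all arrays, was 0.32. Leaving out that tumour also moved miR-34b-3p minus miR-34c from 0.42 to -0.0015 and miR-34b-3p minus miR-34c* from 0.30 to -0.063. For miR-34b-5p minus miR-34c, -0.025 became -0.014.

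MicroRNAs outside the family were ranked by how closely their pattern followed that of each member brighter than the median of all microRNAs, as the root mean square difference over the 6 arrays after subtracting each microRNA's mean in adjacent liver. Nearest to miR-34a were miR-341, miR-15b, miR-380-3p, miR-20a and miR-136, with differences of 0.04 to 0.07, where the size of the miR-34a pattern itself was 0.20. These 5 had log2 fold changes from 0.21 for miR-15b to 0.31 for miR-380-3p and, like miR-34a, were highest in tumour 1316. Tumour 1316 was highest for other microRNAs too, such as miR-379, by 0.99 over all other arrays. Whether the neighbours share regulation with miR-34a was not tested. Nearest to miR-34b-3p were miR-18a*, miR-511-5p, miR-675-3p, let-7g* and miR-130b*, with differences of 0.07 to 0.08 against a size of 0.49. All 5 were high on tumour 1293 alone, the array through which miR-34b-3p itself passed the median. Nearest to miR-34b-5p, whose own size was only 0.06, were miR-331-5p, miR-760-3p, miR-770-3p, miR-125a-3p and miR-1190. All of these share the same 6 arrays. Ranking by pattern picks microRNAs with like differences and a like highest array, so these likenesses are no separate result.

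The miR-449 microRNAs, a family that shares targets with miR-34 through its seed, showed no call. Their log2 fold changes were -0.04 for miR-449b, -0.01 for miR-449c and 0.003 for miR-449a, with limma adjusted p-values of 0.85, 0.94 and 0.97. Of the 3, 0 were called, and their median was -0.01 against -0.03 for all microRNAs. That median was 0.001 without tumour 1293 and -0.05 without tumour 1316.

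Other microRNAs linked to p53, mostly from work in human cells, were counted in 3 lists. The first held microRNAs that p53 raises by transcription or processing, and 11 of its 12 entries were measured. Over all microRNAs 0 of these 11 were called by limma, while 7 were lower (14.1% of all microRNAs were) and 0 higher at an unadjusted p below 0.05. Their median was -0.45, 10 of 11 had a lower mean in tumours (59.6% of all), and for 7 all tumours lay below all adjacent pieces (22.9% of all). The largest differences were those of miR-194, a hepatocyte microRNA, at -0.76 ± 0.21 (SE; limma adjusted p = 0.12), and of miR-107 at -0.64 ± 0.19 (adjusted p = 0.13). Without tumour 1293, 4 of the 11 were called, where 19.6% of all microRNAs were, and without tumour 1309 4 were, where 8.35% of all were. After quantile normalization of the deposited values the median was -0.18. The list is mostly bright, and all tumours lay below all adjacent pieces for 56.3% of the 174 brightest microRNAs. It also overlaps the marker sets above. It shares miR-192 and miR-194 with the hepatocyte set and miR-143 and miR-145 with the stromal set. With the set of bile duct and other epithelia it shares miR-141 and miR-200c. Its median is therefore not separate from the marker values.

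The second list was the miR-17 cluster, miR-17 to miR-92a, which p53 represses. Of its 6 measured members 1 was called, miR-92a, at 0.40 ± 0.07 (SE; limma adjusted p = 0.042), a call that ended with the replicate block (adjusted p = 0.14). It passed in 5 of 16 alternatives, with limma adjusted p-values from 0.0043 to 0.57. The list median was 0.09, and 5 of 6 had a higher mean in tumours (40.4% of all microRNAs). Without tumour 1293 the median was 0.29 and 4 were called (19.6% of all microRNAs), and the median was 0.03 without tumour 1309 and 0.025 without tumour 1316. The third list held 6 microRNAs that act on p53 mRNA itself. By limma 0 were called (3 lower and 0 higher at an unadjusted p below 0.05, where 14.1% and 5.9% of all microRNAs were), and the median was -0.35. Its largest differences were those of miR-125b-5p at -0.80 ± 0.17 (SE; limma adjusted p = 0.093) and miR-30d at -0.70 ± 0.23 (adjusted p = 0.16). Without tumour 1293 the median was -0.17, miR-30d was at -0.44 and 3 of these 6 were called, where 19.6% of all microRNAs were. Without tumour 1309, 1 was called, where 8.35% of all were.

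**Figure D5:**
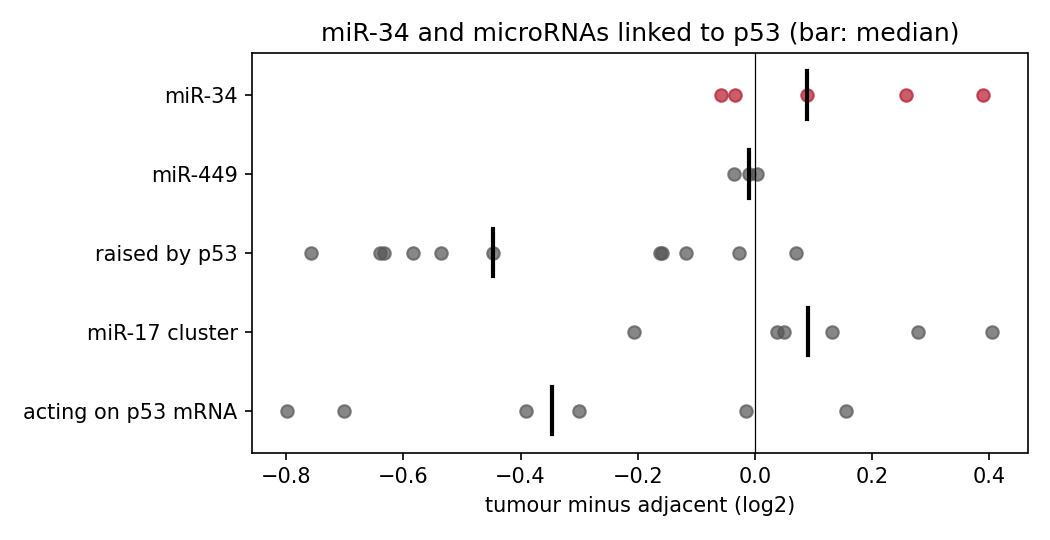
Tumour minus adjacent difference (log2, x axis) of each measured microRNA, 1 point each, in the miR-34 family (red) and in 4 other groups (grey), with black bars for medians. Medians are 0.09 for miR-34, -0.01 for miR-449, -0.45 for microRNAs raised by p53, 0.09 for the miR-17 cluster and -0.35 for those acting on p53 mRNA.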

How the data were processed

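Total RNA from frozen tissue was labelled with cyanine 3-pCp and hybridised to 1-colour microRNA arrays, per the labels' protocols. The deposited log2 values came from RMA, per the submitters' processing notes, which give no versions. Base 2 was assumed for the logarithm, as RMA returns it and no source states another. The table held 695 microRNAs, 6 arrays and 0 missing values. The number of arrays limits the precision.

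All 695 were fitted with lmFit and eBayes of limma 3.58.1 in R 4.3.3 (tumour minus adjacent, no block, two-sided, Benjamini-Hochberg adjustment, threshold 0.05), and the fit was tested on simulated data. That simulation gave both groups the same spread and used a larger change than that of miR-34a. It therefore does not show how well a change as small as that of miR-34a would be found. Differences between members used exact permutations (scipy 1.17.1). Labels tie each adjacent piece to its tumour, so the numbers pair tissue, although deviations from group means correlated at only -0.05, 0.07 and -0.003 within pairs 1293, 1309 and 1316. The members, lists and tests were chosen with earlier results of these data known. Named microRNAs are all members, up to 4 called members of each list or otherwise its 2 largest differences, and the 5 nearest in pattern to each member brighter than the median. Alternatives were the replicate block, quantile normalization, centring on each array's median or its 75th percentile, and a filter on dim microRNAs. Further ones were an intensity trend with robust eBayes, array weights, and leaving out arrays or pairs. Sequences and positions are those of RefSeq for GRCm38.p6, matched by name for 4 of the 5 members.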

Additional observations from a re-analysis of the deposited data

How the results depend on the processing

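For miR-34a the difference was positive under all 16 alternatives. It ran from 0.17 to 0.32 on the log2 scale when arrays or pairs were left out, and limma called it without tumour 1293 (0.31) and with array weights (0.32). The number of called members was 1 with array weights and 0 to 1 when arrays or pairs were left out. For miR-34b-3p, leaving out arrays or pairs gave -0.0170 to 0.62, with -0.0170 without tumour 1293 and -0.0066 without pair 1293. For miR-34c the range was -0.077 to 0.0090, the upper end without pair 1316. Leaving out pairs was added for differences of response between members after seeing the data. These changed sign only when arrays or pairs were left out, with ranges of -0.40 to 0.32 for miR-34a minus miR-34b-3p, -0.0015 to 0.68 for miR-34b-3p minus miR-34c, -0.084 to 0.52 for miR-34b-3p minus miR-34c*, and -0.079 to 0.039 for miR-34b-5p minus miR-34c. The cause was not tested. With exact sign flips over pairs as the replicate block, 3 pairs cannot go below p = 0.25.

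Over all 695 microRNAs, 20 were called, against 12 with the replicate block, 138 with array weights and 9 to 136 when arrays or pairs were left out. When 1 array was left out, called members numbered 0 to 4 in the list raised by p53, 0 to 4 in the miR-17 cluster and 0 to 3 among those acting on p53 mRNA. In the miR-17 cluster, 0 were called with the replicate block and 0 after quantile normalization. The median of the list raised by p53 was -0.18 after quantile normalization. Apart from miR-92a, the replicate block changed no call of a member or of a list microRNA. Signal near the lower end of the scale limits miR-34b and miR-34c most.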
